A study of Mus musculus with 8 samples.

Results

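The receptors described here are those through which cytokines and growth factors act on B cell progenitors in mouse bone marrow. They were taken as 10 genes by symbol from the authors' mRNA table, which lists 22298 genes. They comprise the receptor chains Il7r, Crlf2, Il2rg, Il2ra, Il4ra and Csf2rb, the receptor tyrosine kinases Kit and Flt3, the kinase Jak1 and the transcription factor Stat5b, and all 10 were found. Bone marrow of female wild type C57BL/6 mice aged 8 to 10 weeks was sorted by flow cytometry. B220+IgM- cells were split by the surface protein CD43 into pro-B cells, which carry it, and pre-B cells, which do not. IgM+CD43- cells were split by B220 into immature B cells (B220+) and mature B cells (B220hi). The cells of 3 mice were pooled for each stage, and 1 rRNA-depleted library per stage was sequenced. The question was how the levels of these genes differed from pro-B to mature B cells.

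The receptors of the interleukin-7 (IL-7) family work in pairs. The α chain of the IL-7 receptor, encoded by Il7r, binds IL-7 together with the common γ chain, encoded by Il2rg, and the same α chain pairs with the product of Crlf2 to bind the cytokine TSLP. Each chain carries a Janus kinase, and the kinases activate STAT transcription factors such as STAT5. In mouse bone marrow IL-7 is known as the main growth and survival signal of pro-B and pre-B cells, whereas the receptor tyrosine kinases Kit and Flt3 are known to act earlier, on stem cells and lymphoid progenitors. The interleukin-4 (IL-4) receptor, which joins the product of Il4ra to the common γ chain, is known from mature B cells.

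The 4 libraries differed in how many of their counts lay on mRNA genes. The mRNA counts summed to 867920 in pro-B, 240231 in pre-B, 223495 in immature B and 849350 in mature B cells, and each gene's count was scaled to that total as CPM (counts per 1000000 mRNA counts). A single count is worth 1.15, 4.16, 4.47 and 1.18 CPM in that order. The counts of the lncRNA table lay between 2765507 and 3469757 in every library, so that there were 3.22 lncRNA counts per mRNA count in pro-B, 14.4 in pre-B, 14.4 in immature B and 3.26 in mature B cells. A count of 0 was read as allowing up to 3 counts in that library, which is 3.46, 12.5, 13.4 and 3.53 CPM from pro-B to mature B cells. Intervals below are 95% exact Poisson intervals for a level and 95% exact conditional binomial intervals for a ratio, and they cover counting error only. With 1 library per stage a ratio compares 2 libraries and has no replicate check, so no p-value is given. In such pooled RNA, fewer cells of a type and less RNA per cell cannot be told apart. The stage labels were set beside marker genes. The summed level of 8 pro-B genes, Dntt, Igll1 and Rag1 among them, was 4454 CPM in pro-B cells and between 549 and 1378 CPM in the other libraries. Of these genes, Rag2 alone was highest in another library, at 316 CPM in pre-B beside 109.5 in pro-B cells. Ebf1 alone held 1180 CPM in pro-B and 771 CPM in mature B cells. The summed level of 7 mature B genes such as Fcer2a, Ighd and Cd74 was 13270 CPM in mature B, 5012 in immature B, 690 in pre-B and 979 in pro-B cells. The 5 pre-B genes stood at 2948 CPM in pre-B cells, close to the 2588 CPM of pro-B cells. Il2ra is among them and is itself a receptor gene under study, so its part is no separate check of the label. Cd24a held most of the sum, at 1882 CPM in pre-B cells. Cd24a, Rag2 and Il2ra were highest in pre-B cells in CPM. Rag1 was highest in pro-B cells (918.3 CPM beside 372.2 in pre-B) and Vpreb3 in immature B cells (455.5 beside 294.7 in pre-B). In the FPKM described below, all 5 were higher in pro-B than in pre-B cells. The 4 immature B genes were highest in immature B cells at 9504 CPM, followed by 7530 in pre-B, 5087 in mature B and 4337 in pro-B cells. Ighm held most of these sums, with 7816 CPM in immature B and 7147 in pre-B cells. On the FPKM scale described below, Ighm was lower in immature B (203) than in pro-B (374) and mature B cells (381). Igkc and Ms4a1 were also highest in immature B cells in CPM. Cd93 was highest in pro-B cells, at 429 CPM beside 94.0 in immature B cells.

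Promoter windows are shown for Il7r and Il2ra, which were high in the first 2 libraries, and for Il4ra, which was high in the last. Each runs from 250 bases before to 50 bases after the annotated gene start and is written from 5′ to 3′ on the strand of the gene, from RefSeq on build GRCm38.p6. The windows are chr15:9529827-9530126 on the minus strand for Il7r, chr2:11642542-11642841 on the plus strand for Il2ra and chr7:125552021-125552320 on the plus strand for Il4ra. Capitals mark matches to any of 7 motifs, which were searched on both strands.
Il7r: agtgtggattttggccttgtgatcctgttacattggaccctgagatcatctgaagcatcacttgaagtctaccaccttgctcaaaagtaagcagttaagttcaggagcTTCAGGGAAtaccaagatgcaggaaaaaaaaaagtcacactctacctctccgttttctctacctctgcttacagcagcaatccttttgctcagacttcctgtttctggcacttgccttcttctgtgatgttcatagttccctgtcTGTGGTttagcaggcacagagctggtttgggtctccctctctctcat
Il2ra: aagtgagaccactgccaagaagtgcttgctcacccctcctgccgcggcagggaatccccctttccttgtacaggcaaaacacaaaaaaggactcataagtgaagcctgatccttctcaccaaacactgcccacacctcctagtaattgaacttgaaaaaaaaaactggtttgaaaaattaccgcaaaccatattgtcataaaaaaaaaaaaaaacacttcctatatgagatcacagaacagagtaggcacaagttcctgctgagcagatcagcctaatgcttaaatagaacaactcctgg
Il4ra: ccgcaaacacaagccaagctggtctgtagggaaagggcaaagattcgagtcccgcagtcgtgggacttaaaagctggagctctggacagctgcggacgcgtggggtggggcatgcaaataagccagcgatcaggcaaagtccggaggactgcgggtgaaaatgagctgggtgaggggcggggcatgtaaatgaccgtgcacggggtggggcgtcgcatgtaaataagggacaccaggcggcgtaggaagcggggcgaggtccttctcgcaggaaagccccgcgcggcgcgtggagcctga
The Il7r window held TTCNNNGAA, the letters of a STAT site, as TTCAGGGAA, and TGTGGT, the letters of a RUNX site. Of 32544 windows of this length, 8.33% held the first and 16.7% the second. Neither the Il2ra nor the Il4ra window held any of the 7. Of the 9 genes with a window, Crlf2, Il2rg and Il7r held TGTGGT. Crlf2 and Kit held GAGGAA, a form of an ETS site that 28.1% of all windows held. Il2rg, Kit and Stat5b held CCCNNGGG, part of an EBF1 site that 13.7% held. Other forms of these sites, ETS sites among them, were not searched. CAGGTG of the E proteins, GTAAACA of the FOXO factors and TATAAA were in none of the 9 genes' windows, against 20.3%, 3.66% and 13.6% of all windows. The matches overlapped no other match. A match describes the letters and was not tied to binding by any measurement here.

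Il7r (ENSMUSG00000003882) was the gene of the 10 that differed most between the first and the last stage. Its counts were 189 in pro-B, 32 in pre-B, 8 in immature B and 2 in mature B cells. The levels were 218 CPM (188 to 251) in pro-B, 133 CPM (91.1 to 188) in pre-B, 35.8 CPM (15.5 to 70.5) in immature B and 2.36 CPM (0.285 to 8.51) in mature B cells. Every step of this order exceeded the counting error. Il7r was 1.64-fold lower in pre-B cells than in pro-B cells (1.12 to 2.46), which is within 2-fold. On the FPKM scale described below this step was 7.24-fold. Il7r was then 3.72-fold lower in immature B than in pre-B cells (1.68 to 9.35), and 15.2-fold lower in mature B than in immature B cells (3.03 to 147). Of the 8 counts of immature B cells, 3.24 lay on an isoform described below. Without it the immature and mature B counts fall under the minimum of 10 used for a fold. From pro-B to mature B cells Il7r was 92.5-fold lower (25.3 to 769). Among the 10317 genes compared between these 2 libraries, only 7 had a lower ratio. The last fold rests on 2 counts in mature B cells, which is why its interval is wide.

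Il2ra (ENSMUSG00000026770) encodes CD25, the α chain of the IL-2 receptor and a surface marker of pre-B cells, and it was low in the same libraries as Il7r. Its counts were 59 in pro-B, 20 in pre-B, 6 in immature B and 2 in mature B cells. The levels were 68.0 CPM (51.8 to 87.7), 83.3 CPM (50.9 to 129), 26.9 CPM (9.85 to 58.4) and 2.36 CPM (0.285 to 8.51) in that order. The pro-B and pre-B levels did not differ beyond counting error, at a ratio of 1.23 (0.699 to 2.06) in favour of pre-B cells, a direction that turned on the FPKM scale described below. Il2ra was 3.10-fold lower in immature B than in pre-B cells (1.20 to 9.44) and 28.9-fold lower in mature B than in pro-B cells (7.65 to 244). Between immature and mature B cells its 6 and 2 counts fell short of the minimum of 10 used for a fold.

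Il2rg (ENSMUSG00000031304) encodes the common γ chain that the receptors for IL-2, IL-4, IL-7, IL-9, IL-15 and IL-21 share. It had 42 counts in pro-B, 2 in pre-B, 4.77 in immature B and 23.35 in mature B cells, or 48.4 CPM (34.9 to 65.4), 8.33 CPM (1.01 to 30.1), 21.3 CPM (7.26 to 52.2) and 27.5 CPM (17.2 to 40.6). Pro-B cells were highest, and the mature, immature and pre-B levels did not differ beyond counting error from the neighbour in that order. Il2rg was 5.81-fold lower in pre-B cells than in pro-B cells, with an interval of 1.51 to 49.6 that reflects the 2 counts of pre-B cells. In mature B cells it was 1.76-fold lower than in pro-B cells (1.05 to 3.11). What these counts lay on differed between the libraries, as given below with the isoforms.

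Crlf2 (ENSMUSG00000033467), the chain that completes the TSLP receptor, had a low level. Its counts of 19, 4, 8 and 31 from pro-B to mature B cells correspond to 21.9 CPM (13.2 to 34.2), 16.7 CPM (4.54 to 42.6), 35.8 CPM (15.5 to 70.5) and 36.5 CPM (24.8 to 51.8). No neighbours in the order of levels differed beyond counting error. The ratio of immature B to pre-B cells was 2.15 (0.576 to 9.76), past 2-fold but with an interval that spans 1. Mature B cells held 1.67 times the pro-B level (0.913 to 3.12). On the FPKM scale described below, Crlf2 stood at 2.64, 0.53, 1.67 and 4.32 from pro-B to mature B cells. Il7r and Crlf2 encode the chains of 1 receptor, and the former was lowest in mature B cells while the latter was not.

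Il4ra (ENSMUSG00000030748) encodes the α chain of the IL-4 receptor, which IL-13 also uses, and its levels ran opposite to those of Il7r. It had 92 counts in pro-B, 35 in pre-B, 49 in immature B and 534 in mature B cells. The levels were 106 CPM (85.5 to 130), 146 CPM (102 to 203), 219 CPM (162 to 290) and 629 CPM (576.5 to 684) in that order. Mature B cells stood above the other 3 libraries with no overlap of the intervals, whereas the steps from pro-B to pre-B and from pre-B to immature B cells were within counting error, with ratios of 1.37 (0.904 to 2.05) and 1.51 (0.956 to 2.39). On the FPKM scale the first of these steps turned to a lower level in pre-B cells. Il4ra was 2.87-fold higher in mature B than in immature B cells (2.14 to 3.93) and 5.93-fold higher than in pro-B cells (4.75 to 7.48). Of all genes compared between mature B and pro-B cells, 97.7% had a lower ratio.

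**Figure D1:**
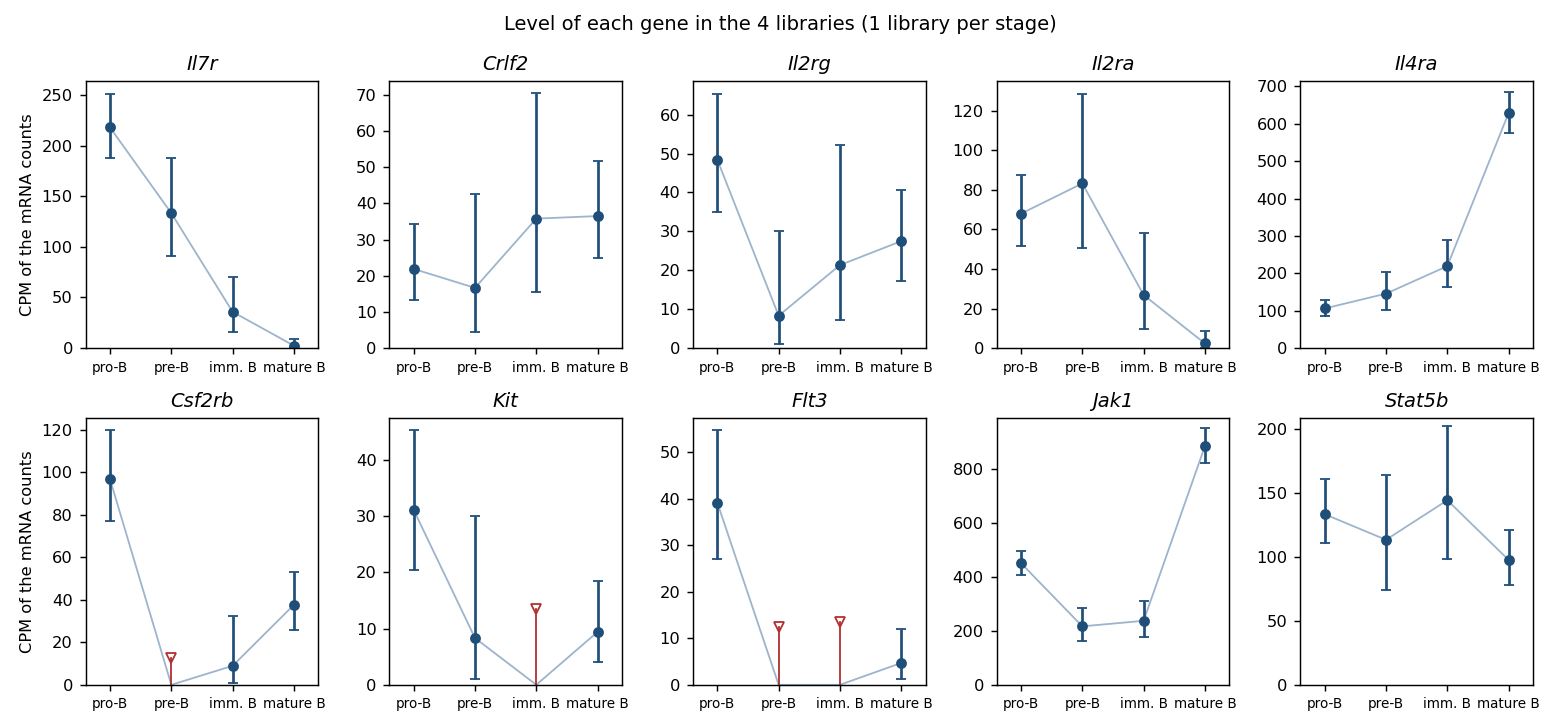
Level of each of the 10 genes in the 4 libraries, in CPM of the mRNA counts (vertical axis, from 0, with its own range in each panel) by stage (horizontal axis, imm. B for immature B). Points with bars are the level and its 95% exact Poisson interval, and red triangles mark the level that 3 counts would give where the count was 0. Il7r went from 218 CPM in pro-B to 2.36 CPM in mature B cells and Il4ra from 106 to 629 CPM.

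Csf2rb (ENSMUSG00000071713) encodes the common β chain of the receptors for IL-3, IL-5 and GM-CSF. It had 84 counts in pro-B, 0 in pre-B, 2 in immature B and 32 in mature B cells, or 96.8 CPM (77.2 to 120), no count, 8.95 CPM (1.08 to 32.3) and 37.7 CPM (25.8 to 53.2). The pro-B and mature B libraries were high and the other two low. With 3 counts in place of the 0, Csf2rb was at least 7.75-fold lower in pre-B cells than in pro-B cells, and the counting interval of this ratio began at 6.17-fold. It was 4.21-fold higher in mature B than in immature B cells (1.07 to 36.3, with 2 counts in immature B cells), and 2.57-fold lower in mature B than in pro-B cells (1.69 to 3.99). The mouse has a near copy, Csf2rb2, whose counts were 65, 0, 8 and 2, and reads that fit both may have been divided between them, so the values of both are uncertain.

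Kit (ENSMUSG00000005672) encodes the receptor for stem cell factor. Its counts were 27 in pro-B, 2 in pre-B, 0 in immature B and 8 in mature B cells, and its levels were 31.1 CPM (20.5 to 45.3), 8.33 CPM (1.01 to 30.1), no count and 9.42 CPM (4.07 to 18.6). Pro-B cells stood above mature B cells beyond counting error, and the other libraries could not be told from one another at this depth. Kit was 3.30-fold lower in mature B than in pro-B cells (1.46 to 8.41). Its ratio in pre-B cells was 3.74-fold lower than in pro-B cells, but the 2 counts behind it gave an interval of 0.939 to 32.4.

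Flt3 (ENSMUSG00000042817) encodes the receptor for FLT3 ligand and marks lymphoid progenitors. It had 34 counts in pro-B, 0 in pre-B, 0 in immature B and 4 in mature B cells, or 39.2 CPM (27.1 to 54.7) in pro-B and 4.71 CPM (1.28 to 12.1) in mature B cells. With 3 counts in place of the 0, Flt3 was at least 3.14-fold lower in pre-B cells than in pro-B cells, and the counting interval of this ratio began at 2.42-fold. It was 8.32-fold lower in mature B than in pro-B cells (2.97 to 32.3). Between pre-B and immature B cells no fold can be given for Csf2rb, Kit or Flt3, since both libraries held 3 counts or fewer.

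Jak1 (ENSMUSG00000028530) encodes the Janus kinase that binds IL-7Rα, IL-4Rα and several other receptor chains, and it had the most counts of the 10 genes. The counts were 391 in pro-B, 52 in pre-B, 53 in immature B and 751 in mature B cells. The levels were 450.5 CPM (407 to 497), 216.5 CPM (162 to 284), 237 CPM (178 to 310) and 884 CPM (822 to 950). Pre-B and immature B cells did not differ beyond counting error, pro-B cells lay above both and mature B cells above pro-B cells. Jak1 was 2.08-fold lower in pre-B cells than in pro-B cells (1.56 to 2.84), 3.73-fold higher in mature B than in immature B cells (2.82 to 5.02), and 1.96-fold higher in mature B than in pro-B cells (1.74 to 2.22). The first and the last of these folds lay close to 2, so which side they fell on depended on the scaling. With the size factors of DESeq2 the log2 ratio was -0.88 for pre-B against pro-B and 1.15 for mature B against pro-B cells, in place of -1.06 and 0.97.

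Stat5b (ENSMUSG00000020919) encodes one of the 2 STAT5 proteins that IL-7 activates, and it was the most even of the genes with over 100 counts. Its counts were 115.62, 27.2, 32.21 and 82.82 from pro-B to mature B cells, and its levels 133 CPM (110 to 160.3), 113 CPM (74.1 to 164), 144 CPM (97.9 to 202) and 97.5 CPM (77.8 to 121). No neighbours in the order of levels differed beyond counting error. Mature B cells held a 1.37-fold lower level than pro-B cells (1.02 to 1.84). The near copy Stat5a had 69.38, 46.8, 39.79 and 82.18 counts, and fragments that fit both may have been divided between them, so the values of both are uncertain.

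Set against all genes, the 10 genes were read with the share that lay at least 2-fold apart in the same direction, among genes with at least 10 counts over both libraries. Between pro-B and pre-B cells all 10 genes passed this minimum. None was at least 2-fold higher in pre-B cells, where 17.9% of 9712 genes were. Il2rg, Csf2rb, Kit, Flt3 and Jak1 were at least 2-fold lower, where 29.6% of genes were. The median log2 ratio was -0.35 over all genes compared and -0.88 over the 10 genes, so part of the distance from 0 is shared with the other genes. Relative to that median, Il7r at -0.71 and Crlf2 at -0.39 lay nearer the middle of the genes than Jak1 at -1.06.

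Between pre-B and immature B cells 6 of the 10 genes passed the minimum, and Il2rg, Csf2rb, Kit and Flt3 did not. Crlf2 was at least 2-fold higher in immature B cells, where 18.5% of 7004 genes were, and Il7r and Il2ra were at least 2-fold lower, where 18.9% were. The median log2 ratio of all genes compared was -0.01. Between immature and mature B cells 7 genes passed, and Il2ra, Kit and Flt3 did not. Il4ra, Csf2rb and Jak1 were at least 2-fold higher in mature B cells, where 24.9% of 8992 genes were, and Il7r was at least 2-fold lower, where 21.6% were. The median of all genes compared was 0.16.

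Pro-B and mature B cells had the 2 libraries of like totals, and all 10 genes passed the minimum between them. Il4ra was at least 2-fold higher in mature B cells, where 13.3% of 10317 genes were. Il7r, Il2ra, Csf2rb, Kit and Flt3 were at least 2-fold lower, where 23.6% of genes were. The median log2 ratio was -0.18 over all genes compared and -1.09 over the 10 genes. Il2rg, Crlf2, Jak1 and Stat5b lay within 2-fold.

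**Figure D2:**
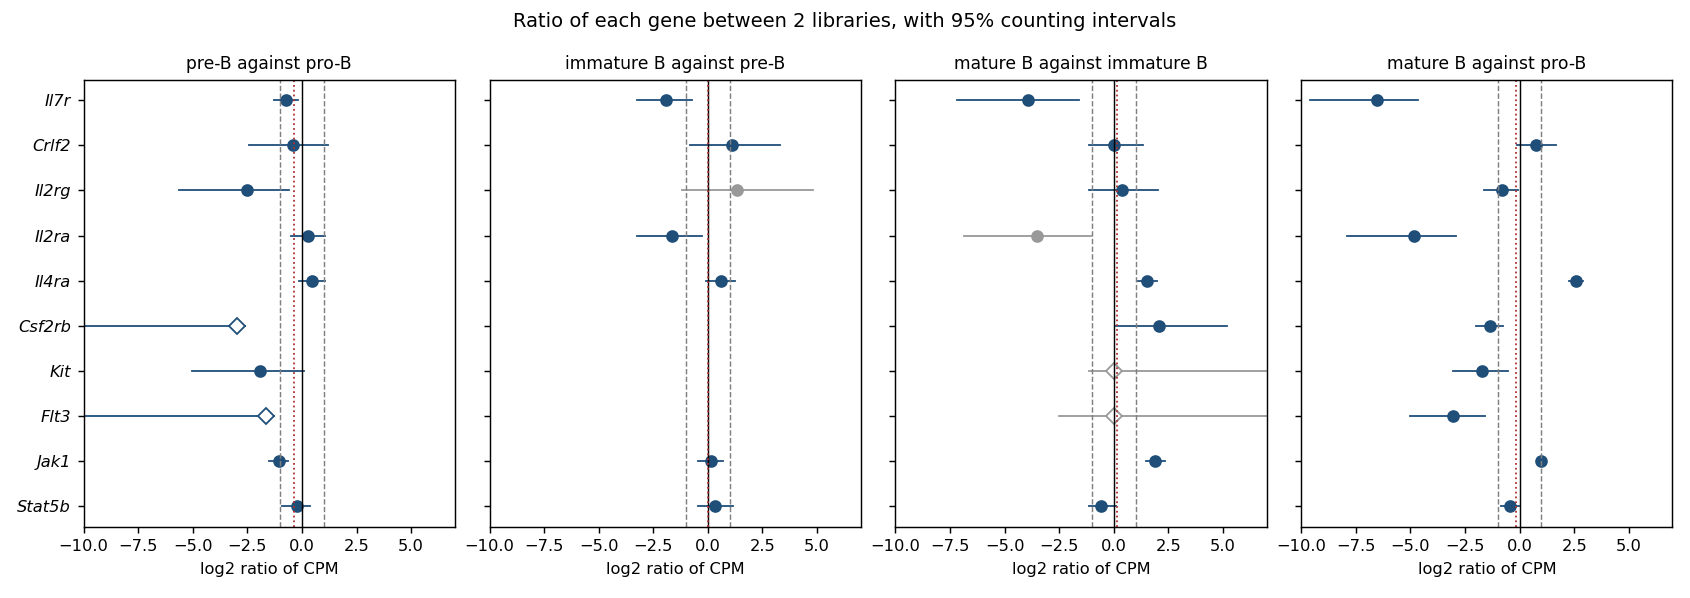
Log2 ratio of CPM for each of the 10 genes (rows) in the 4 comparisons (panels), with lines for the 95% counting interval, ended at the panel edge where it runs on. Grey marks a gene under 10 counts over both libraries, open diamonds a library at 0 that was set to 3 counts, dashed lines 2-fold, and the red dotted line the median of all genes compared. Il7r lay left of 0 in every panel, and Il4ra lay beyond 2-fold to the right in both comparisons of mature B cells.

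Levels of different genes were compared on the FPKM scale that the authors deposited, which scales fragments to transcript length and library size, since only this scale takes length into account. In pro-B cells Jak1 stood first of the 10 at an FPKM of 15.77, followed by Il7r at 11.37, Il2rg at 9.21 and Il4ra at 7.46, and Kit was last at 0.95. In mature B cells Jak1 at 37.41 and Il4ra at 27.9 came first and Il2rg followed at 7.40. An Il2rg isoform listed as lncRNA, described below, had an FPKM of 6.9 there. Il7r at 0.11 and Il2ra at 0.09 came last. Il7r thus moved from the second to the ninth place of the 10. Its FPKM was the 1287th of all genes in pro-B cells, where 12830 genes had a count. In mature B cells it was the 11394th, where 11952 genes had a count.

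Between libraries the FPKM scale gave a different picture from CPM in the middle stages. The median log2 FPKM ratio of all genes compared was -2.09 for pre-B against pro-B cells, where it was -0.35 in CPM, and 1.89 for mature B against immature B cells, where it was 0.16. On FPKM 3.05% of genes were at least 2-fold higher and 76.5% at least 2-fold lower in pre-B cells than in pro-B cells, and 71.9% were higher and 3.69% lower in mature B than in immature B cells. All 8 genes with an FPKM above 0 in both libraries were then at least 2-fold lower in pre-B cells, from 3.70-fold for Il2ra to 14.9-fold for Il2rg. Relative to the FPKM median, Il2ra with a log2 FPKM ratio of -1.89 lay above it, while Il7r at -2.86 and Jak1 at -2.95 lay below it. Stat5b was 1.48-fold lower in mature B than in immature B cells in CPM and 2.21-fold higher in FPKM. Between pro-B and mature B cells the scales lay closer, with a median log2 ratio of all genes of -0.18 in CPM and -0.14 in FPKM. Il7r was 92.5-fold lower in CPM and 103-fold lower in FPKM in mature B cells, and Il4ra was 5.93-fold and 3.74-fold higher. Jak1 was 1.96-fold higher in CPM and 2.37-fold higher in FPKM, and for both Il4ra and Jak1 the FPKM value lay outside the counting interval. With the mRNA plus lncRNA counts as the total in place of the mRNA counts, the median log2 ratio of all genes was -2.22 for pre-B against pro-B and 2.02 for mature B against immature B cells, near the values of FPKM. Ratios in FPKM between a middle and an end stage thus lay near those of a scale that includes the lncRNA counts.

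**Figure D3:**
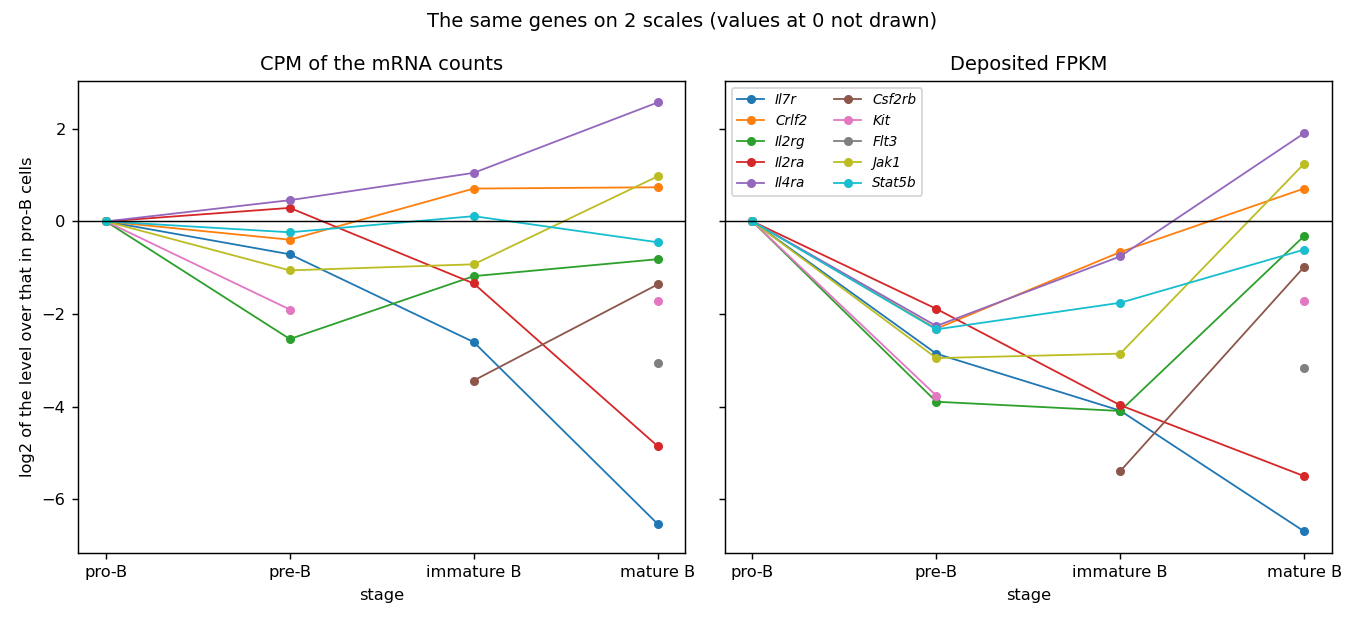
Log2 of the level of each gene over its level in pro-B cells (vertical axis) by stage (horizontal axis), in CPM of the mRNA counts on the left and in the deposited FPKM on the right, with values at 0 left out. In pre-B cells Il2ra and Il4ra lie above the pro-B level in CPM, at 0.29 and 0.46, and all drawn genes lie below it in FPKM. In mature B cells Il4ra lies at 2.57 in CPM and 1.90 in FPKM, and Il7r is the lowest gene on both sides.

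Some counts of the 10 genes lay on transcripts that the authors list in their lncRNA table. The gene counts of the mRNA table include them, since over all genes with such counts they exceeded the gene count by more than 0.05 in at most 2 genes of a library. Over those genes they held 14.3% of the gene counts in pro-B, 35.3% in pre-B, 32.3% in immature B and 15.5% in mature B cells. Counts on such transcripts are thus part of the mRNA total and of the lncRNA total, and a total of both includes them from each. For the 10 genes 12 such transcripts are listed and 9 had a count. For Il7r, ENSMUST00000227234 held 21.61 of the 189 counts in pro-B cells (11.4%), 3.24 of the 8 counts in immature B cells (40.5%) and none in the other libraries. For Il2rg, ENSMUST00000127538 held 6.01 of 42 counts in pro-B cells (14.3%), both counts of pre-B cells, none in immature B cells and 20.36 of 23.35 counts in mature B cells (87.2%). The rest of Il2rg was 35.99, 0, 4.77 and 2.99 counts, so that most of what was counted as Il2rg in mature B cells lay on that isoform. Without that isoform, an alternative chosen after seeing the data, the log2 CPM ratio of Il2rg in mature B against pro-B cells was -3.56 in place of -0.82. Mature B and immature B cells then held fewer than 10 counts together, so no fold is given between them. All 4 counts of Flt3 in mature B cells lay on ENSMUST00000110549. For Jak1 such transcripts held 5.07% of the pro-B and 5.35% of the mature B counts. Crlf2, Il2ra, Il4ra and Kit have none listed, and the one listed for Csf2rb had no count. How fragments that fit several isoforms were assigned was not tested.

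**Figure D4:**
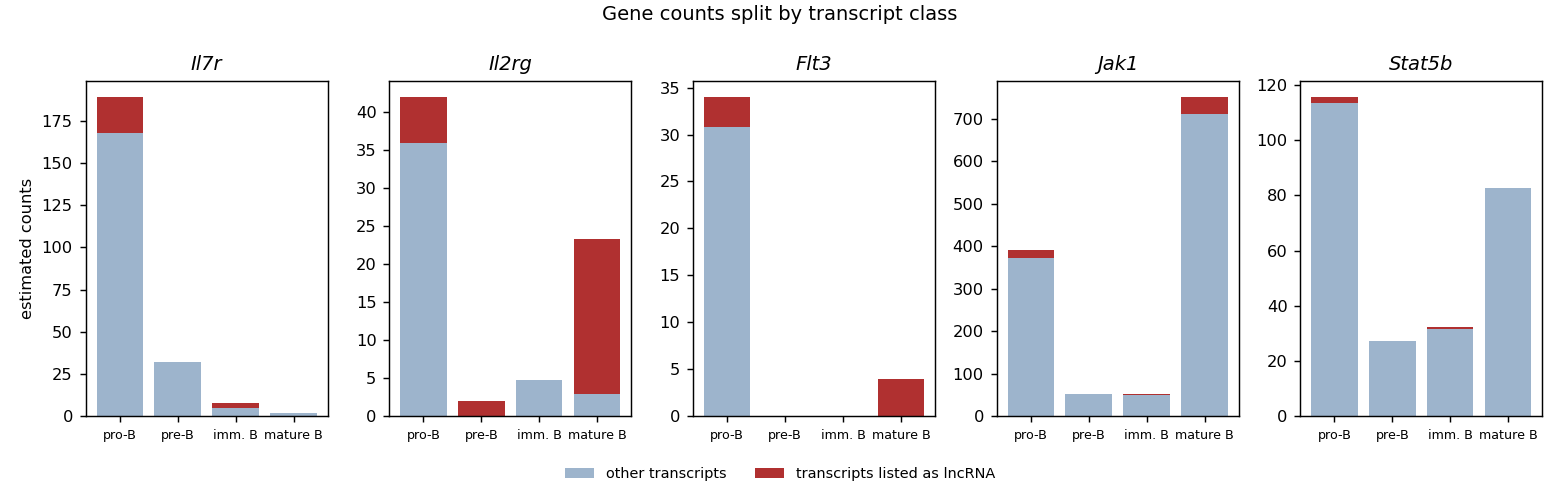
Estimated counts (vertical axis, from 0, with its own range in each panel) of the 5 genes that had counts on isoforms listed as lncRNA, by stage (horizontal axis, imm. B for immature B), with those isoforms in red and all other transcripts of the gene in blue. In mature B cells 20.36 of 23.35 Il2rg counts and all 4 Flt3 counts are red.

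The back-spliced reads of circular RNAs are another readout of the same loci. Of 1005 circRNAs in the table, 2 have one of the 10 genes as their parental gene. The first, classed as antisense to Il2ra, is novel_circ_000476 at chr2:11683990-11684296 on the minus strand with a spliced length of 307 bases, and it had 3 reads in immature B cells and 0 in the other libraries. The second, classed as intronic in Jak1, is novel_circ_000787 at chr4:101237553-101245856 on the minus strand with a length of 8304 bases, and it had 4 reads in pro-B cells and 0 in the others. These coordinates are as deposited. The submitters' notes name mm9, whereas 98.5% of 945 circRNAs overlap the GRCm38.p6 span of their parental gene, so the build is read as GRCm38. The libraries held between 1370 and 1751 back-spliced reads in all, so a difference of 3 or 4 reads against 0 was not detectable at this depth.

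The cytokines that bind these receptors had few or no counts in the libraries. Of 13 ligand genes, Il7, Tslp, Il9, Il13, Il15, Il21, Il3, Il5 and Csf2 had no count in any library, and the counts of all 13 summed to 4, 4.55, 0 and 14 from pro-B to mature B cells. The 14 counts of mature B cells were all of Flt3l, the ligand of Flt3, which had 2 counts in pro-B cells and none in the others. A count of 0 allows up to 12.5 CPM in pre-B and 13.4 CPM in immature B cells.

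Among 21 partner and related receptor chains the 2 end stages differed in both directions. Of 17 compared, Il21r, Il9r, Il5ra and Il10ra were at least 2-fold higher in mature B than in pro-B cells, beside 13.3% of all genes. Il2rb, Csf2rb2, Il3ra and Ifnar2 were at least 2-fold lower, beside 23.6%. The median log2 ratio was 0.14 beside -0.18 over all genes. Some of these rest on few counts in pro-B and mature B cells, 1 and 25 for Il9r, 4 and 10 for Il5ra and 11 and 2 for Il3ra. The interval of the Il5ra ratio, 0.737 to 11.2, spans 1. Il21r, which pairs with the common γ chain to bind IL-21, had 26.03, 15, 23.9 and 197.43 counts, or 30.0, 62.4, 107 and 232 CPM from pro-B to mature B cells. It was 7.75-fold higher in mature B than in pro-B cells (5.13 to 12.2). Il10ra, the ligand-binding chain of the IL-10 receptor, had 76, 15, 14 and 189 counts and was 2.54-fold higher in mature B than in pro-B cells (1.94 to 3.36). Il6st, which encodes the signal chain gp130, had 98, 32, 22 and 106 counts and was within 2-fold at a ratio of 1.11 (0.832 to 1.47). The interferon receptor genes Ifnar1, Ifngr1 and Ifngr2 were within 2-fold between the same 2 libraries as well, with 179 and 149, 93 and 115, and 70 and 109 counts. In pre-B against pro-B cells 5 of 15 chains were lower, beside 29.6% of all genes. Il21r and Ifngr2 were higher there in CPM, beside 17.9% of all genes, but their FPKM went from 2.01 to 1.04 and from 3.47 to 1.97. In immature B against pre-B cells 2 of 9 chains were higher, beside 18.5% of all genes, and 0 lower. In mature B against immature B cells 6 of 15 were higher, beside 24.9%, and 3 were lower in CPM, beside 21.6%, Csf2rb2, Csf3r and Ifnar2, which were higher in FPKM.

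The other Janus kinases and STATs mostly lay within 2-fold between pro-B and mature B cells. Of the 9 genes, Stat6 alone was at least 2-fold apart, where 13.3% of all genes were higher and 23.6% lower in mature B cells. Stat6 had 119 counts in pro-B, 34 in pre-B, 29 in immature B and 254 in mature B cells. It was 2.18-fold higher in mature B than in pro-B cells (1.75 to 2.74). STAT6 is the transcription factor that the IL-4 receptor is known to activate, and Il4ra was higher in the same library. Jak3, the kinase that binds the common γ chain, had 88, 12, 19 and 72 counts, and was 2.03-fold lower in pre-B cells than in pro-B cells (0.245 to 0.905 as a ratio). Jak2 had 128, 4, 24 and 183 counts and Stat3 133, 11, 15 and 131, and both were lower in pre-B cells, by 8.86-fold and 3.35-fold. In all, 5 of 9 were at least 2-fold lower in pre-B cells than in pro-B cells, beside 29.6% of all genes. Stat5a alone was higher, beside 17.9% of all genes, at 2.44-fold in CPM (1.66 to 3.62), while its FPKM was 3.41 in pro-B and 2.25 in pre-B cells. In immature B against pre-B cells Jak2 was higher among 7 compared, beside 18.5% of all genes, and 0 were lower. In mature B against immature B cells 5 of 9 were higher, beside 24.9% of all genes, and 0 lower.

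Of 18 inhibitors of these receptors, 16 were compared between pro-B and mature B cells, where Socs3 and Ptpn6 were at least 2-fold higher and Socs1 and Socs2 at least 2-fold lower in mature B cells, beside 13.3% and 23.6% of all genes, with a median log2 ratio of 0.05 beside -0.18. Ptpn6 encodes the phosphatase SHP-1, and it had 229, 25, 200 and 753 counts, or 264, 104, 895 and 887 CPM from pro-B to mature B cells. It was 8.60-fold higher in immature B than in pre-B cells (5.66 to 13.6). Sh2b3, which encodes the adaptor LNK, had 284, 72, 111 and 350 counts and Cbl, a ubiquitin ligase, 350.13, 32.84, 39.7 and 378.02, and both were within 2-fold between the end stages. Ptpn1, Pias1 and Cblb, with 141, 97 and 98.8 counts in mature B and 99, 102 and 90.08 in pro-B cells, were within 2-fold too. Socs1 and Cish are known to be induced by cytokine receptors and to restrain them. They were the 2 of 16 inhibitors at least 2-fold higher in CPM in pre-B cells than in pro-B cells, beside 17.9% of all genes. Socs1 had 15, 21, 2 and 0 counts, and Cish had 6, 10, 2 and 0. Their ratios in this comparison were 5.06 (2.485 to 10.55) and 6.02 (1.98 to 20.2). In FPKM both were higher in pre-B cells but within 2-fold, from 0.99 to 1.31 for Socs1 and from 0.40 to 0.61 for Cish. Both genes fall outside the rule for named genes and were chosen after their values were seen. Against pro-B cells 7 of 16 inhibitors were lower in pre-B cells, beside 29.6% of all genes. In immature B against pre-B cells 4 of 14 were higher and 3 lower, beside 18.5% and 18.9%, and in mature B against immature B cells 3 of 14 were higher, beside 24.9%, and 0 lower.

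Genes known as targets of IL-7 or STAT5 signals were next compared between mature B and pro-B cells. Of 13 genes 11 passed the minimum, 7 were at least 2-fold lower, beside 23.6% of all genes, and 2 at least 2-fold higher, beside 13.3%, with a median log2 ratio of -1.67 beside -0.18 over all genes. The lower ones were Pim1, Bcl2l1, Ccnd2, Ccnd3, Osm, Igf1r and Socs2. Pim1, a survival kinase, had 231.59, 86.68, 34.22 and 71.34 counts, or 267, 361, 153 and 84.0 CPM, and was 3.18-fold lower in mature B than in pro-B cells (0.236 to 0.410 as a ratio). Ccnd3 and Ccnd2 encode D-type cyclins of the cell cycle. Ccnd3 had 197, 40, 34 and 49 counts and was 3.93-fold lower, and Ccnd2 had 106, 10, 37 and 41 counts and was 2.53-fold lower in mature B than in pro-B cells. Igf1r, the receptor for insulin-like growth factor, had 156, 6, 8 and 34 counts and was 4.49-fold lower. Mcl1, which protects cells from death, had 637, 108, 140 and 553 counts and was within 2-fold. The 2 genes that were higher in mature B cells were Bcl2 and Myc. Myc, a regulator of growth, had 48, 4, 13 and 190 counts and was 4.05-fold higher (2.93 to 5.67). Bcl2 had 30, 0, 4 and 111 counts and was 3.78-fold higher (2.51 to 5.86). In pre-B against pro-B cells 6 of 12 were lower and 1 was higher, beside 29.6% and 17.9% of all genes. In immature B against pre-B cells 3 of 10 were lower and 4 higher, beside 18.9% and 18.5%. In mature B against immature B cells 5 of 10 were lower and 2 higher in CPM, beside 21.6% and 24.9%, and of the 5 lower ones Ccnd2 and Ccnd3 were not lower in FPKM, with 4.63 and 4.45 in immature B and 4.65 and 10.03 in mature B cells.

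The 9 genes of adaptors and other signal proteins that act below Kit and Flt3 were all compared between the end stages. Gab1, Gab2 and Ptpn11 were at least 2-fold lower and Grb2 at least 2-fold higher in mature B cells, beside 23.6% and 13.3% of all genes. The median log2 ratio was -0.94 beside -0.18. Grb2 had 87, 19, 35 and 186 counts and was 2.19-fold higher (1.69 to 2.85), and Ptpn11, the gene of SHP-2, had 153, 27, 28 and 74 and was 2.02-fold lower. Inpp5d, a lipid phosphatase gene, had 651.45, 70.49, 72.52 and 465.43 counts, Lyn 281.46, 113, 48.04 and 367.91, Pik3r1 224.82, 18.83, 12.3 and 113.25, and Sos1 70, 4, 18 and 84. These 4 lay within 2-fold between pro-B and mature B cells. In pre-B against pro-B cells 5 of these 9 genes were lower, beside 29.6% of all genes, and 0 higher. In immature B against pre-B cells 1 of 7 was lower and 1 higher, beside 18.9% and 18.5%, and in mature B against immature B cells 2 of 7 were higher, beside 24.9%, and 0 lower.

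**Figure D5:**
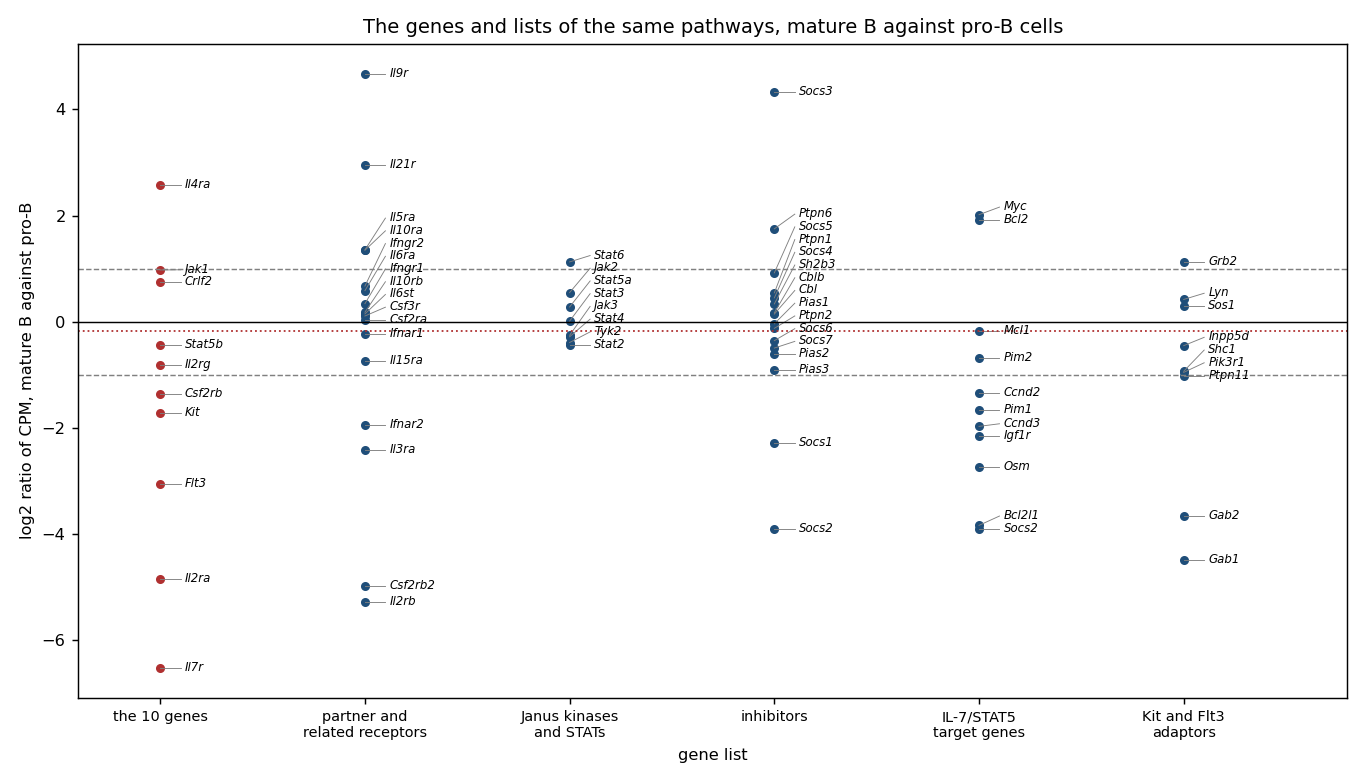
Log2 ratio of CPM in mature B against pro-B cells (vertical axis) for the 10 genes in red and for the genes of 5 pathway lists in blue (horizontal axis), for the reported genes with at least 10 counts over both libraries. Dashed lines mark 2-fold, the red dotted line the median of all genes compared at -0.18, and thin grey lines join each name to its point. Of the targets of IL-7 or STAT5 signals 7 of 11 lie below the lower dashed line, and Bcl2 and Myc lie above the upper one.

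By the authors' pathway columns, 8 of the 10 genes belong to JAK-STAT signaling, 7 to PI3K-Akt signaling, 6 to cytokine-cytokine receptor interaction and 5 to hematopoietic cell lineage. The genes most like each of the 10 in how their CPM was shared out over the 4 libraries were searched among 4737 genes with at least 100 counts. Likeness was taken as the sum of the absolute differences of the shares divided by 2, with 0 for identical shares. For Il7r they were Gfra1 at 0.0143, with 344, 61, 13 and 4 counts, Slamf7 at 0.0633 and Lig4 at 0.0671. For Il4ra they were Lmbrd1 at 0.0337, Brwd1 at 0.0347, with 157, 59, 65.5 and 900 counts, and Plk2 at 0.0462. For Jak1 they were Ets1 at 0.0107, with 638, 83, 91 and 1191.09 counts, Sp100 at 0.0124 and Kdm7a at 0.0136. For Stat5b they were Pitrm1 at 0.0104, Cdk2 at 0.0116 and Ptma at 0.0153. For Csf2rb they were Gga1 at 0.0503, Ppp1ca at 0.0548 and Tmem63a at 0.0575. The other 5 genes had fewer than 100 counts over the libraries. No counting interval was taken for these differences of shares. In pre-B and immature B cells Stat5b had 27.2 and 32.21 counts and Pitrm1 14 and 17, so the order of the nearest genes is uncertain.

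The live cells were gated by B220, IgM and CD43, so markers of other cells were summed in each library. Of 12 T and NK cell genes, 10 had a count in pro-B, 1 in pre-B, 2 in immature B and 4 in mature B cells, and they summed to 449, 8.33, 17.9 and 8.24 CPM. Il2rb, which is also a chain of the IL-2 and IL-15 receptors, led them with 119 counts in pro-B cells and 0, 2 and 0 in the others, and Gzma had 106 in pro-B and 0 in the others. Of the T cell genes, Trbc1 had 11.02, Trbc2 9.98 and Cd3g 2 counts in pro-B cells, and Cd3d and Cd3e had 0. Of 8 genes of plasmacytoid dendritic cells, which are known to use Flt3, 8, 5, 7 and 5 had a count, and they summed to 2278, 487, 985 and 885 CPM. Irf8 and Tcf4, which B cells also express, led them with 783 and 363.5 counts in pro-B cells, and Siglech had 105, 0, 4 and 0. These lists were highest in the pro-B library, where Kit, Flt3, Csf2rb, Il2rg and Il7r were highest too, and their part in those levels was not tested.

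The lists of other lineages were summed in the same way. Of 6 mast cell and basophil genes, which share Kit and Csf2rb, 4, 1, 1 and 4 had a count, and they summed to 16.1, 16.7, 8.95 and 17.7 CPM with Fcer1a at 0 in every library. Prss34 had 3, 4, 2 and 6 counts and Mcpt8 7, 0, 0 and 0. Stem and myeloid progenitor genes summed to 74.9, 33.3, 62.6 and 76.5 CPM over 6, 3, 4 and 7 of 7 genes, with 1, 0, 4 and 2 counts of Cd34, and the most counts in Ly6a with 22, 2, 2 and 48 and in Meis1 with 23, 0, 4 and 4. Neutrophil and monocyte genes summed to between 862 and 1136 CPM, with 7 of 10 genes in every library and Csf1r, Cd14 and Ly6g at 0, led by Lyz2 and S100a8 with 279 and 235 counts in pro-B and 209 and 127 in mature B cells. Erythroid genes summed to between 224 and 415 CPM over 3 to 6 of 6 genes, led by Hbb-bs and Hba-a2, and plasma cell genes to between 111 and 375 CPM over 3 or 4 of 4 genes, led by Xbp1 and Sdc1. Their part in the levels of the 10 genes was not tested.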

How the data were processed

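Each of the 4 stages was measured in 1 rRNA-depleted, strand-specific RNA library. The authors cleaned reads with fastp 0.18.0, removed rRNA with Bowtie2 2.2.8, mapped with HISAT2 2.1.0 and assembled with StringTie 1.3.4. The submitters' processing notes also list Bowtie 0.12.2 and mm9. For mRNAs and lncRNAs the deposited values are estimated counts, not normalized, of which 6.27% to 9.80% were not whole, which can divide fragments between near copies and isoforms. The FPKM values that the authors deposited are scaled by transcript length and mapped fragments. For circRNAs the authors deposited counts of reads over back-splices from find_circ, listed with at least 2 unique reads. The miRNA table was not used here, and 0 columns had no sample.

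Counts were divided by the mRNA column total to give CPM, since the totals ranged from 223495 to 867920. Genes were compared in 4 pairs of libraries with at least 10 counts over both, a count of 0 set to 3 counts, and 2-fold as the limit. No test was run, and 95% intervals cover counting error. The ratios and intervals were checked on simulated counts with counting error alone. This check held no spread between libraries and did not cover changes in genes of low counts. Values were computed with pandas 2.3.3, numpy 2.4.6 and scipy 1.17.1 and drawn with matplotlib 3.10.9 (Python 3.11.15). Other scalings came from DESeq2 1.42.0 and edgeR 4.0.16 (R 4.3.3). Named were the 10 genes, up to 6 genes with at least 100 counts from each pathway list, the 3 genes most like each of the 10, and the 2 most counted genes of each list of other cells; single ligands, other list members past 2-fold and absent markers were named after their values were seen. The values of 1 list gene are not reported here. The 10 genes and the lists were chosen with earlier results of these data known. Promoter windows came from RefSeq on GRCm38.p6, found for 9 of the 10 genes and not for Csf2rb.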

Additional observations from a re-analysis of the deposited data

How the results depend on the processing

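With 1 library per stage no replicate could be left out, and differences smaller than the counting intervals were not detectable at this depth. No paired analysis was possible because each stage has 1 library. The numbers of the 10 genes at least 2-fold apart depended on the scaling in several comparisons. Lower in pre-B cells than in pro-B cells were 5 genes, 8 with FPKM and 10 with mRNA plus lncRNA counts as the total. Higher in immature B than in pre-B cells was 1 gene, and 2 with FPKM, with no count minimum or at 1.5-fold. Higher in mature B than in immature B cells were 3 genes, and 6 with FPKM and 6 with mRNA plus lncRNA totals. Lower in mature B than in immature B cells was 1 gene, Il7r, and 2 with no count minimum. The count there was 0 without the isoforms listed as lncRNA, an alternative chosen after seeing the data, since Il7r then falls under 10 counts. Higher in mature B than in pro-B cells was 1 gene, and 2 with TMM, 2 with DESeq2 size factors, 2 with FPKM and 3 at 1.5-fold. The numbers lower in immature B than in pre-B, lower in mature B than in pro-B and higher in pre-B cells than in pro-B cells stayed within 1.5 times under all of these. Single ratios of the 10 genes stayed within their counting intervals in 37 of 37 cases with TMM, 37 of 37 with DESeq2 size factors, 37 of 37 with a count of 0 set to 1, 34 of 36 without the isoforms, 27 of 37 with mRNA plus lncRNA totals and 20 of 33 with FPKM. No ratio past 2-fold with at least 10 counts over both libraries changed its sign under any of them. Under that minimum, Il2rg in immature B against pre-B cells had a log2 ratio of 1.36 in CPM and -0.20 in FPKM.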
